A study of Mus musculus with 2 samples.

Results

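The nuclear-encoded genes of the mitochondrial respiratory chain were examined in single cells of the adult mouse stria vascularis (SV), the vascularised epithelium of the cochlear lateral wall. Members were the genes whose symbols begin with Ndufa, Ndufb, Ndufc, Ndufs, Ndufv, Uqcr, Sdha to Sdhd or Cox4 to Cox8 and whose Ensembl identifier occurs in both deposited matrices. These were 80 of the 27040 genes listed in both. They comprise 36 subunits of complex I, 4 of complex II, 8 of complex III and 19 of complex IV, 12 assembly factors and the paralogue Ndufa4l2. The rule itself uses names only.

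The study profiled dissociated SV with droplet-based 3′ sequencing, in which each captured RNA molecule carries a unique molecular identifier (UMI), in order to describe its endothelial cells (ECs) and pericytes (PCs). One library was made from Tie2-GFP mice, in which the endothelial Tie2 promoter drives a green fluorescent protein, and the other from NG2-DsRed mice, in which the Cspg4 (NG2) promoter of pericytes and other NG2-expressing cells drives a red one. Each library pooled 20 cochleae of 10 mice aged 1 to 3 months. With 1 library per line and no link from a cell barcode to a mouse, all comparisons below are descriptions with intervals for counting error only, no test between conditions was possible, and the line cannot be told apart from the library.

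The respiratory chain passes electrons from NADH through complex I, or from succinate through complex II, to complex III, cytochrome c and finally complex IV, which reduces oxygen, while complexes I, III and IV pump the protons that drive ATP synthase. Most subunits are encoded in the nucleus and a small core of complexes I, III and IV and ATP synthase by mitochondrial DNA, and several complex IV subunits exist as tissue-specific isoforms. In the SV, marginal cells secrete potassium into the endolymph with the Na,K-ATPase and are known to be rich in mitochondria, melanocyte-derived intermediate cells supply the potassium channel behind the endocochlear potential, and ECs and pericytes form the capillaries.

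Barcodes were classed by marker genes. Endothelial barcodes held UMIs of at least 4 of Pecam1, Cdh5, Cldn5, Flt1, Egfl7 and Ramp2; mural barcodes (PCs and smooth muscle cells) of at least 3 of Pdgfrb, Rgs5, Vtn and Notch3; intermediate barcodes of at least 2 of Dct, Tyr and Kcnj10; and marginal barcodes of both Kcne1 and Kcnq1, the last 3 classes with at most 1 endothelial marker. The Tie2-GFP library held 379 endothelial, 4 mural, 97 intermediate and 20 marginal barcodes among 633, and the NG2-DsRed library held 60 endothelial, 97 mural, 28 intermediate and 0 marginal barcodes among 201. No barcode was shared. Median depth per barcode ranged from 3027 UMIs in mural to 14280 in marginal barcodes, and the libraries summed to 5432289 and 1232599 UMIs. Markers left out of the class rule mostly bore out the endothelial, mural and marginal names. Their levels were summed in CPM (UMIs scaled to a total of 1e+06 per class). The sums were 4817 and 3289 for 6 endothelial genes in the endothelial barcodes of the Tie2-GFP and NG2-DsRed libraries. They were 9099 for 6 mural genes in mural barcodes and 12135 for 6 marginal genes in marginal barcodes. Exceptions included the marginal gene Wnk4, with 27.3 CPM in marginal and 51.2 CPM in intermediate barcodes. The marginal genes summed to 3235 CPM in Tie2-GFP intermediate barcodes, where Slc12a2 had 3151. The endothelial gene Esam had 469 CPM in mural and 466 CPM in Tie2-GFP endothelial barcodes. In intermediate barcodes 5 melanocyte genes summed to 4113 and 3506 CPM, carried by Gpnmb, Mlana and Met, whereas the pigment genes Tyrp1 and Pmel had 0 and 1 UMI in each library. Of the endothelial barcodes, 26 of 379 in the Tie2-GFP and 34 of 60 in the NG2-DsRed library carried at least 3 mural markers. The mitochondrially encoded share of UMIs exceeded 5% in 86 of 97 and 19 of 20 intermediate and marginal barcodes of the Tie2-GFP library, against 7 of 379 endothelial ones. In the NG2-DsRed library it did so in 19 of 28 intermediate, 1 of 60 endothelial and 3 of 97 mural barcodes.

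**Figure D1:**
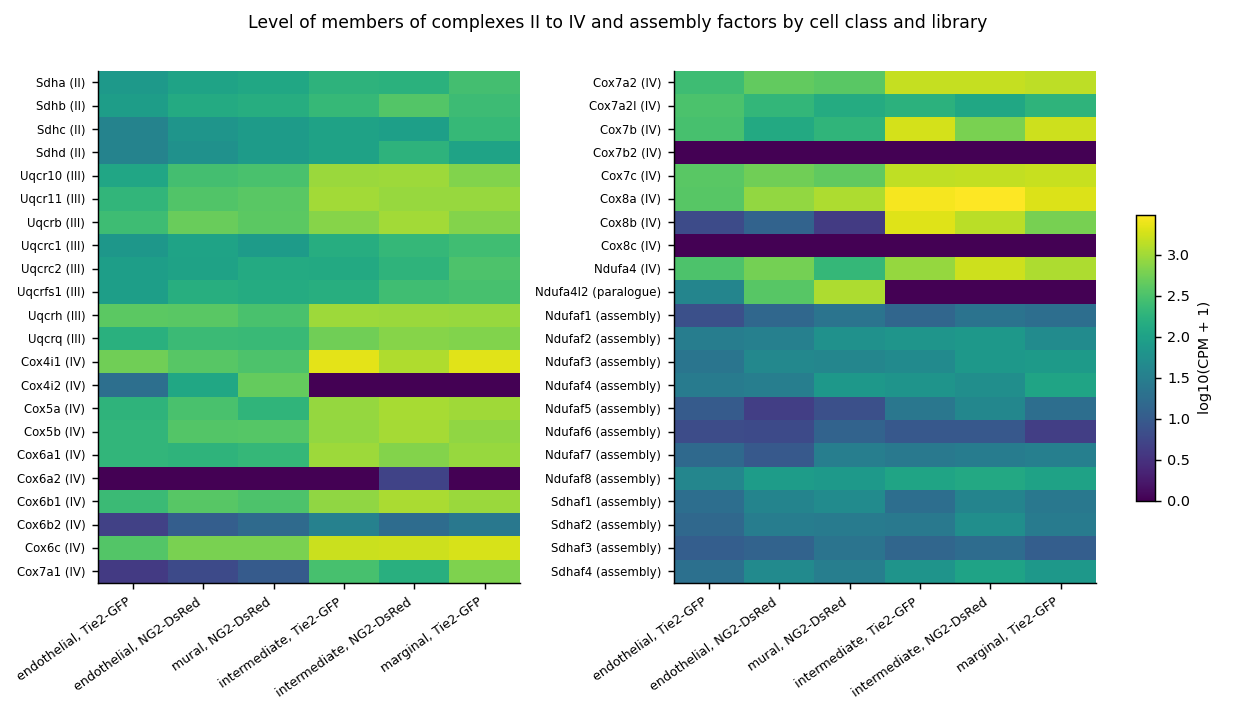
Level of each subunit of complexes II to IV, of Ndufa4l2 and of each assembly factor (rows, grouped by role) in each class of barcodes of each library (columns), as log10 of CPM of the class's summed UMIs plus 1. The 67 subunits together reached 9246 CPM in endothelial barcodes of the Tie2-GFP library and 35458 and 37604 CPM in its intermediate and marginal barcodes.

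Respiratory chain transcripts were several-fold more abundant in the epithelial and melanocytic classes than in vascular ones. In the Tie2-GFP library the 67 subunits of complexes I to IV summed to 9246 CPM in endothelial barcodes (95% exact Poisson interval 9144 to 9348). They summed to 35458 CPM in intermediate barcodes (35141 to 35778) and to 37604 CPM in marginal barcodes (36905 to 38312). Both were thus 3.84-fold (3.78 to 3.89) and 4.07-fold (3.98 to 4.16) above the endothelial sum, with which both share their denominator, and lay within 1.06-fold of each other (1.04 to 1.08). In the NG2-DsRed library the sums were 13812 CPM in endothelial, 13901 CPM in mural and 36041 CPM in intermediate barcodes. Intermediate barcodes there stood 2.61-fold above endothelial (2.53 to 2.69) and 2.59-fold above mural ones (2.50 to 2.69). The mural and endothelial sums differed by 1.01-fold with an interval that spans 1 (0.971 to 1.04). The endothelial barcodes of that library are the ones that often carry mural markers, and the log2 ratio of mural to endothelial, 0.01 as computed, was 0.30 with those holding any such marker left out (5 barcodes remaining), 0.59 with the Tie2-GFP endothelial barcodes in their place and -0.12 with equal weight for each barcode. The order of the 2 vascular classes thus changed with the setting.

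The difference was spread over the chain, and complex IV differed most. Complex I, the NADH dehydrogenase, summed to 3875 CPM in endothelial, 11714 in intermediate and 15061 in marginal barcodes of the Tie2-GFP library. Complex II, the succinate dehydrogenase shared with the citrate cycle, summed to 236, 605 and 850 CPM. Complex III, the cytochrome bc1 complex, summed to 1390, 4624 and 4718 CPM. Complex IV, the cytochrome c oxidase, summed to 3746, 18515 and 16976 CPM. It was the only one of the 4 whose sum was lower in marginal than in intermediate barcodes. That order was not shared by all its members. Of 15 compared between these 2 classes 7 were higher in marginal barcodes, and only Cox8b was lower past 2-fold (log2 ratio -1.85). Cox8b held 2863 of the 24959 complex IV UMIs in intermediate and 173 of the 4973 in marginal barcodes, so it weighed on the order of the sums. Against endothelial barcodes the folds in marginal barcodes were 3.89, 3.61, 3.39 and 4.53 for complexes I to IV, and in intermediate barcodes 3.02, 2.57, 3.33 and 4.94. The same 4 folds of intermediate over endothelial barcodes in the NG2-DsRed library were 2.12, 2.2, 2.43 and 3.29, again with complex IV highest. The assembly factors, which help build complexes I and II without being part of them, differed less, at 2.54-fold, 2.21-fold and 1.85-fold in these 3 comparisons.

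**Figure D2:**
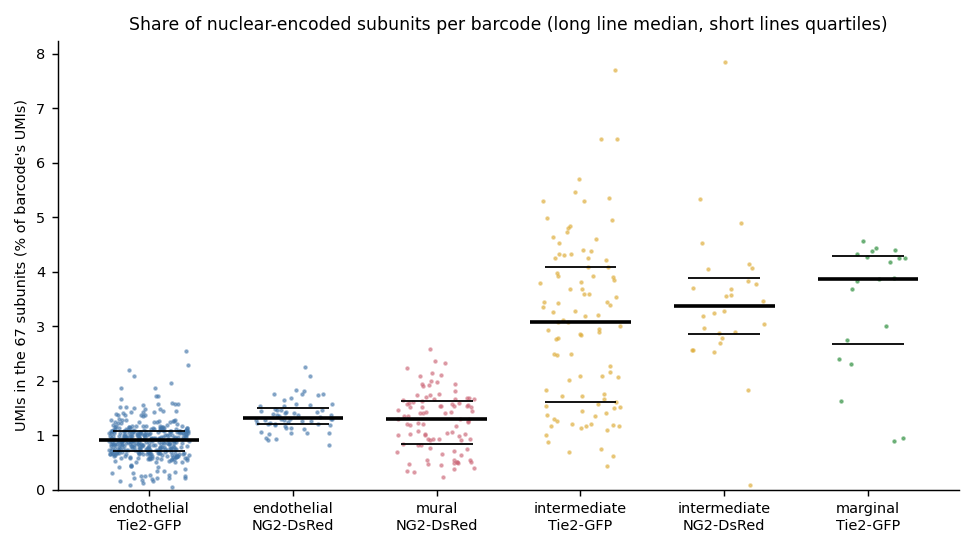
Share of each barcode's UMIs that fell in the 67 subunits (percent, vertical axis) by class and library, 1 point per barcode, with the median and quartiles. Medians were 0.903% and 1.31% in endothelial, 1.30% in mural, 3.08% and 3.37% in intermediate and 3.87% in marginal barcodes.

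The difference was seen in most single barcodes, and the share tended to rise with depth. Endothelial barcodes of the Tie2-GFP library gave a median of 0.903% of their UMIs to the 67 subunits (quartiles 0.703% and 1.07%), and the highest gave 2.55%. Intermediate barcodes of that library had a median of 3.08% (1.61% and 4.10%) and marginal ones of 3.87% (2.67% and 4.29%). Of them, 92 of 97 and 19 of 20 lay above the endothelial median, and 58 of 97 and 15 of 20 above the highest endothelial barcode. The classes thus overlapped, and intermediate barcodes spread widely, from 0.442% to 7.71%. With mitochondrially encoded UMIs left out, the share had Spearman correlations with depth of 0.31 in intermediate, 0.36 in marginal and 0.16 in endothelial barcodes. The NG2-DsRed correlations were 0.50 in mural, 0.25 in intermediate and 0.10 in endothelial barcodes. The part of depth in the difference was not tested. In the NG2-DsRed library the medians were 1.31% in endothelial, 1.30% in mural and 3.37% in intermediate barcodes, and 26 of 28 intermediate but 3 of 97 mural barcodes lay above the highest endothelial one. Mural barcodes spread more widely around the same median (quartiles 0.842% and 1.63%) than endothelial barcodes did (1.20% and 1.49%) and were shallower, with medians of 3027 and 9146 UMIs.

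Counted gene by gene, a member was compared where it had at least 50 UMIs over both classes, and called where its CPM differed at least 2-fold. Between marginal and endothelial barcodes 65 of 72 members were higher and 2 lower in marginal barcodes, while 15.4% of all 7413 genes compared were higher and 38% lower. The median log2 ratio was 1.97 over the members and -0.47 over all genes. Between intermediate and endothelial barcodes of the same library 62 of 75 were higher and 2 lower, beside 17.4% and 28.9% of 8296 genes, with medians of 1.53 and -0.24. In the NG2-DsRed library 36 of 63 were higher and 2 lower in intermediate than in endothelial barcodes, beside 16.8% and 28.8% of 2954 genes, with medians of 1.22 and -0.25. All 36 were also among the 54 members, of the 63 compared in both libraries, that were higher in the Tie2-GFP library, which is 100% of one list and 66.7% of the other. With 54 of 63 called there, most of any 36 members would have been shared, and the overlap over all genes was not computed. Against mural barcodes 36 of 62 were higher and 2 lower in intermediate barcodes, beside 20.2% and 25% of 2155 genes. Mural against endothelial barcodes gave few calls, with 2 of 61 higher and 1 lower in mural barcodes, beside 13.2% and 15.7% of 3368 genes. With the Tie2-GFP endothelial barcodes in place of those of the NG2-DsRed library, 23 of 70 were higher and 1 lower in mural barcodes, beside 18.4% and 22.1% of 7515 genes. Of the 80 members, 59 were compared in all 7 comparisons, and 5 with few or no UMIs (Ndufaf1, Ndufaf6, Cox6a2, Cox7b2 and Cox8c) in none.

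**Figure D3:**
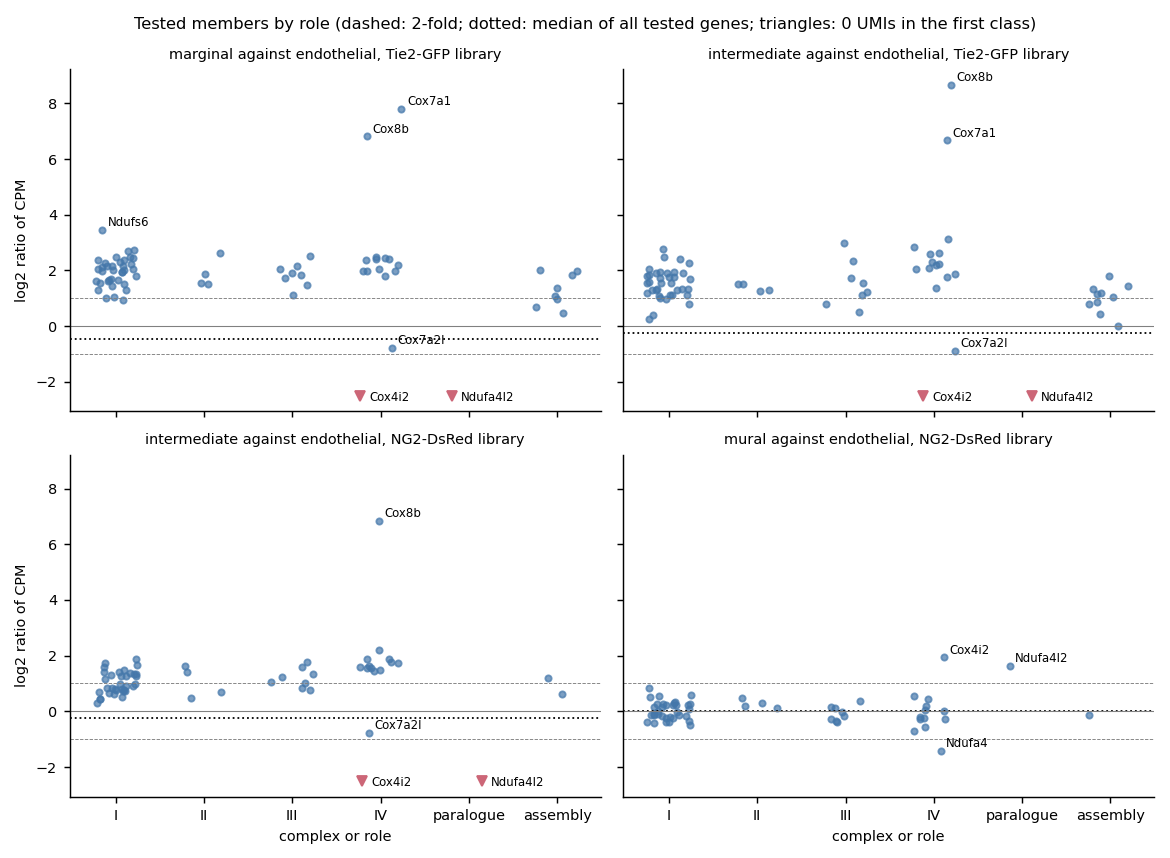
Log2 ratio of CPM of each compared member (1 point per gene), by complex, for marginal against endothelial, intermediate against endothelial in each library, and mural against endothelial barcodes, with dashed lines at a 2-fold difference, a dotted line at the median of all genes compared and triangles for genes with 0 UMIs in the first class, which have no ratio. Complex I members ranged from 0.95 to 3.47 in marginal and from 0.25 to 2.78 in intermediate barcodes of the Tie2-GFP library, and 0 of 34 passed 2-fold in mural barcodes.

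Complex I rose almost throughout in marginal barcodes, where 35 of its 36 subunits passed 2-fold and the exception, Ndufa7, had a log2 ratio of 0.95 (0.64 to 1.24). The largest difference was in Ndufs6, a subunit of the NADH-oxidising arm that is added late in assembly. Its level was 80.7 CPM in endothelial, 276 in intermediate and 891 in marginal barcodes, a log2 ratio of marginal to endothelial of 3.47 (3.22 to 3.71). Ndufs6 therefore stood high in marginal barcodes over the other classes. Among barcodes of at least 2340 UMIs, each thinned to that number, it was found in 82.7% of marginal, 42.7% of intermediate and 17.6% of endothelial ones. The iron-sulphur subunit Ndufs1 followed at 143 against 21.5 CPM (log2 ratio 2.73), and the membrane-arm subunit Ndufc1 at 594 against 92.6 CPM (2.68). In intermediate barcodes of the Tie2-GFP library 32 of 36 passed 2-fold, led by Ndufc1 at 638 CPM (2.78, 2.60 to 2.97), while Ndufa6 (0.25), Ndufv1 (0.80) and Ndufs4 (0.97) were among those that did not. In the NG2-DsRed library 15 of 34 passed, led by Ndufb6 at 315 against 84.7 CPM (1.89, 1.36 to 2.44), and all 34 ratios were above 1. Ndufs6 gave no clear difference there, at 210 against 153 CPM (0.46, -0.06 to 0.97).

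All 4 subunits of complex II passed 2-fold in marginal and in intermediate barcodes of the Tie2-GFP library, and 2 of 4 in intermediate barcodes of the other. Sdhc, 1 of the 2 membrane anchors, had 35.5 CPM in endothelial, 102 in intermediate and 218 in marginal barcodes, a log2 ratio of marginal to endothelial of 2.62 (2.16 to 3.07). Its ratio of intermediate to endothelial, 1.52, was 0.59 within the study's mitochondrial limit. Sdhb, the iron-sulphur subunit, had 88.2, 219 and 249 CPM, with log2 ratios of 1.31 and 1.50 for intermediate and marginal over endothelial barcodes. In complex III all 8 subunits among the members passed in marginal barcodes and 6 of 8 in intermediate barcodes of each library. Uqcr10, a small subunit, led with 117 CPM in endothelial, 932 in intermediate and 679 in marginal barcodes of the Tie2-GFP library and with 283 and 964 CPM in endothelial and intermediate barcodes of the NG2-DsRed library. Its log2 ratios of intermediate to endothelial were 2.99 (2.83 to 3.16) and 1.77 (1.48 to 2.06). The core subunit Uqcrc2 behaved otherwise, at 90.6 CPM in endothelial, 130 in intermediate and 324 in marginal barcodes, so that only marginal barcodes passed, and its intermediate ratio (0.52) ranged from -0.35 to 0.76 over the alternative settings.

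Complex IV held the largest ratios, in isoforms that several classes hardly expressed. Of its compared members, these isoforms included, 13 of 15 were higher in marginal, 14 of 16 in Tie2-GFP intermediate and 12 of 14 in NG2-DsRed intermediate barcodes than in endothelial ones. Cox4i1, the usual isoform of the largest nuclear subunit, had 544 CPM in endothelial, 2265 in intermediate and 2144 in marginal barcodes of the Tie2-GFP library, and 383, 325 and 1178 CPM in endothelial, mural and intermediate barcodes of the other. Cox8a, the usual isoform of the smallest subunit, had 388, 2763 and 2014 CPM and, in the second library, 852, 1173 and 3115 CPM. Cox7b had 301, 1858 and 1676 CPM and then 132, 193 and 609 CPM. These 3 genes had log2 ratios of intermediate to endothelial of 2.06, 2.83 and 2.63 in the Tie2-GFP library and of 1.62, 1.87 and 2.2 in the NG2-DsRed library. Levels are UMIs from 3′ ends, not corrected for length or capture, so they were compared between classes and not between genes.

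Cox8b and Cox7a1, the isoforms known from heart and skeletal muscle, were abundant in intermediate and marginal barcodes and scarce in vascular ones. Cox8b (chr7:140898945-140900446, minus strand) had 2124 CPM in intermediate barcodes of the Tie2-GFP library (2047 to 2203), 1356 CPM in those of the NG2-DsRed library (1215 to 1509) and 591 CPM in marginal barcodes (506 to 685). It had 5.24 and 11.9 CPM in endothelial and 3.01 CPM in mural barcodes, so no vascular class came near the other 2. The log2 ratio of intermediate to endothelial was 8.66 (8.0 to 9.42) and 6.84 (5.78 to 8.16) in the Tie2-GFP and NG2-DsRed libraries, and that of marginal to endothelial 6.82 (6.11 to 7.60). After thinning to 2340 UMIs, which leaves out shallower barcodes, Cox8b was found in 89.9% and 86.4% of intermediate and 59.7% of marginal barcodes. It was found in 1.35% and 2.24% of endothelial and 0.341% of mural ones. Before thinning, over all barcodes of each class, the shares were 96.9%, 85.7%, 90%, 4.49%, 6.67% and 1.03%. The intermediate-cell gene Dct, used in the class rule, was also found in the same endothelial barcodes. It had 17.5 and 96.6 CPM there against 28907 and 21204 CPM in intermediate barcodes. Whether such UMIs of Dct or Cox8b are free RNA was not tested. Of the UMIs of Cox8a, Cox8b and Cox8c together, Cox8b took 43.5% in Tie2-GFP intermediate (42.3 to 44.7%), 30.3% in NG2-DsRed intermediate (27.6 to 33.1%) and 22.7% in marginal barcodes (19.7 to 25.8%), against 1.33% and 1.37% in endothelial ones.

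Cox7a1 (chr7:30184144-30186078, plus strand) had the opposite order of the 2 rich classes. Its level was 655 CPM in marginal barcodes, 297 and 157 CPM in intermediate barcodes of the Tie2-GFP and NG2-DsRed libraries, 2.91 and 5.08 CPM in endothelial and 9.03 CPM in mural barcodes. The log2 ratio to endothelial was 7.81 (6.90 to 8.90) in marginal and 6.67 (5.78 to 7.75) in intermediate barcodes. Thinned shares of barcodes with a UMI were 68.2% in marginal, 37.9% and 27.8% in intermediate and 0.685% in Tie2-GFP endothelial barcodes. Of the UMIs of Cox7a1, Cox7a2 and Cox7a2l it took 29.5% in marginal and 14.7% and 8.67% in intermediate barcodes, and the 14.7% was 8.81% in the 9 intermediate barcodes within the study's mitochondrial limit. Other muscle or germ-cell isoforms were all but absent: Cox6a2 had 1 UMI in all classed barcodes and Cox7b2 and Cox8c had 0, while Cox6b2, the testis isoform of Cox6b1, took between 1.4% and 4.42% of the pair in the classes of at least 20 barcodes.

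The sequences upstream of these 2 isoforms are set beside those of 2 widely expressed members, Cox6a1 and Ndufa11, because their base composition differs. Each run is 200 bases, from 250 to 51 bases before the RefSeq start of the gene on its own strand (GRCm38.p6). Capitals mark CACGT, the reverse complement of ACGTG, the core letters of a hypoxia response element.
Cox8b (chr7:140900497-140900696, minus strand): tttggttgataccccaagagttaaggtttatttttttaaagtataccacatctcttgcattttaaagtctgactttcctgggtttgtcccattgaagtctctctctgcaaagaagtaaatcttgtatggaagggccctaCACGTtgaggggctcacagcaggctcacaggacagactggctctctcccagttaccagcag
Cox7a1 (chr7:30183921-30184120, plus strand): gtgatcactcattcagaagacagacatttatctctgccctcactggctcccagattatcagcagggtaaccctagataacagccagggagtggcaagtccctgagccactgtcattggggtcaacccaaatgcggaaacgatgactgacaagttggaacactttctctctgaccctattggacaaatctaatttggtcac
Cox6a1 (chr5:115349009-115349208, minus strand): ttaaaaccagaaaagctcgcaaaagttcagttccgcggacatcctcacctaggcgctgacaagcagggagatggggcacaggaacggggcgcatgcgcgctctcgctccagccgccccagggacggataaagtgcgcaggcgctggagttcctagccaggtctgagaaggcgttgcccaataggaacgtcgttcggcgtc
Ndufa11 (chr17:56717512-56717711, plus strand): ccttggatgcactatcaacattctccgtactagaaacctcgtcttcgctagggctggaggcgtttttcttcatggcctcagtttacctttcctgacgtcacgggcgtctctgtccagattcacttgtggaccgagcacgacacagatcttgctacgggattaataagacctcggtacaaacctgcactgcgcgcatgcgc
The 250 bases before the start of Cox8b held 1 CpG dinucleotide and those of Cox7a1 held 4, where the median was 14 over the 67 windows of the 65 members with a RefSeq entry and 6 over all 32851 windows of the genome. Cox8b was the lowest of the members, and 18.8% of all windows were at or below it. The 2 members set beside the isoforms were rich in CpG, with 26 in Cox6a1 and 20 in Ndufa11. Ndufc2 held 4 like Cox7a1, and Cox7b and Uqcr10 held 5, so a low count was not particular to the 2 isoforms. On either strand, CCGGAAG, the letters of an ETS or GABP site, occurred in 17.9% of member windows and 6.91% of all windows. The ACGTG letters occurred in 16.4% and 16.6%, AAGGTCA of the oestrogen-related receptors in 4.48% and 4.08%, CATGTG, an E-box read by the melanocyte factor MITF and its relatives, in 4.48% and 12.3%, and TATAAA in 8.96% and 12.4%. A match describes letters in a window and no binding was measured.

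**Figure D4:**
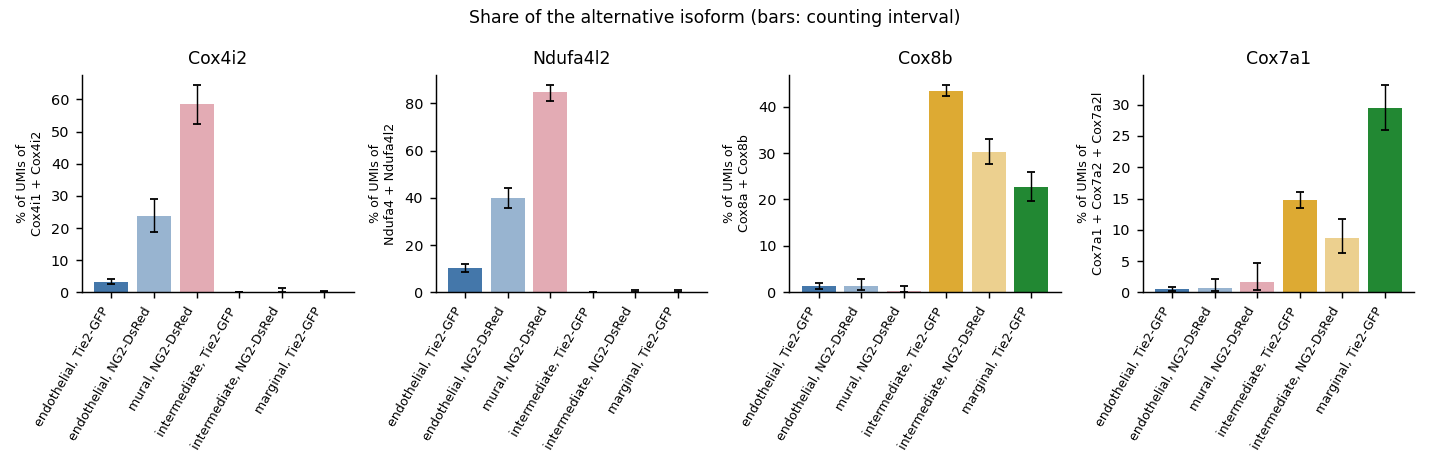
Share of the UMIs of an isoform pair or family taken by Cox4i2, Ndufa4l2, Cox8b and Cox7a1 (percent, vertical axes from 0) in each class and library, with Clopper-Pearson 95% intervals. Cox4i2 reached 58.5% and Ndufa4l2 84.6% in mural barcodes, and Cox8b 43.5% in intermediate barcodes of the Tie2-GFP library.

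A pair of alternative subunits had its highest levels in mural barcodes. Cox4i2, the isoform of Cox4 that is induced at low oxygen in other tissues (chr2:152754173-152765037, plus strand), had 457 CPM in mural, 119 CPM in NG2-DsRed endothelial and 18.1 CPM in Tie2-GFP endothelial barcodes. Not a single UMI was found in intermediate or marginal barcodes. Of the UMIs of Cox4i1 and Cox4i2 it took 58.5% in mural barcodes (152 of 260, Clopper-Pearson interval 52.2 to 64.5%), 23.6% (18.9 to 28.9%) and 3.21% (2.47 to 4.10%) in the endothelial barcodes, and 0 of 3053, 0 of 292 and 0 of 628 in the 2 intermediate classes and the marginal class, which allows shares of up to 0.0983%, 1.03% and 0.478%. Mural barcodes had the highest share among the classes of at least 20 barcodes. The log2 ratio of Cox4i2 between mural and endothelial barcodes within the NG2-DsRed library was 1.95 (1.53 to 2.38). It was 5.41 with endothelial barcodes of at least 3 mural markers left out and 4.66 against the Tie2-GFP endothelial barcodes. The 5.41 is imprecise, since the endothelial barcodes left held 2 UMIs of Cox4i2 in those with 1 or 2 mural markers and 0 in those with none.

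Ndufa4l2, the paralogue of the complex IV subunit Ndufa4 and a marker of pericytes in other organs (chr10:127514967-127517154, plus strand), followed the same pattern. It had 1170 CPM in mural, 380 CPM in NG2-DsRed endothelial and 37.6 CPM in Tie2-GFP endothelial barcodes, and 0 UMIs in intermediate and marginal ones. Ndufa4 itself ran the other way, with 214 CPM in mural against 571 CPM in endothelial barcodes of that library, a log2 ratio of -1.42 (-1.81 to -1.05), and 1695 CPM in intermediate barcodes. Ndufa4l2 therefore took 84.6% of the pair in mural barcodes (80.9 to 87.7%), 39.9% (35.8 to 44.1%) and 10.2% (8.62 to 12%) in the endothelial barcodes, and 0 of 420, 0 of 1158 and 0 of 338 UMIs in the other classes. The log2 ratio of Ndufa4l2 between mural and endothelial barcodes was 1.62 (1.38 to 1.87), and 3.52 and 4.96 in the same 2 alternatives. Ndufa4l2 was found in 91.8% of the 65 mural barcodes deep enough for thinning, after it, and in 91.8% of all 97 before it. The 2 shares are over unlike sets, since 32 shallower barcodes were left out of the first. In endothelial barcodes of the NG2-DsRed and Tie2-GFP libraries it was found in 45.1% and 3.75% after thinning (68.3% and 8.18% before). These 3 genes were the only members past 2-fold between mural and endothelial barcodes of the NG2-DsRed library. Against the Tie2-GFP endothelial barcodes the ratio of Ndufa4 was -0.62, which is no longer a call. Below 2-fold were, among others, Cox5a (-0.70), Ndufb10 (0.59) and Cox7a2l (-0.57).

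Against intermediate and marginal barcodes, where both genes were at 0, the fold is a lower bound computed with 3 UMIs. Ndufa4l2 was at least 96.7-fold lower in intermediate than in mural barcodes, and at least 31.4-fold and 16.9-fold lower than in endothelial barcodes of the NG2-DsRed and Tie2-GFP libraries. Cox4i2 was at least 37.8-fold, 9.80-fold and 8.11-fold lower. In marginal barcodes the bounds were 3.67-fold for Ndufa4l2 and 1.76-fold for Cox4i2, the second of which is below the fold required for a call but is counted as lower above because its CPM was 0.

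Within endothelial barcodes the 2 genes moved with mural markers. In the Tie2-GFP library the 304 endothelial barcodes with none of the 4 mural markers held 1 UMI of Cox4i2 among 1353 of the pair (0.0739%) and 1 of Ndufa4l2 among 834 (0.120%). The 49 barcodes with 1 or 2 markers held 5 of 305 (1.64%) and 11 of 193 (5.70%), and the 26 with at least 3 held 56 of 271 (20.7%) and 117 of 233 (50.2%). Those 26 barcodes were also deeper, at a median of 17782.5 UMIs against 7127. In the NG2-DsRed library the shares were 31.2% and 48.8% in the 34 barcodes with at least 3 mural markers and 3.03% and 15.3% in the 21 with 1 or 2, and 0 of 12 and 0 of 17 UMIs in the 5 without. Endothelial barcodes free of mural markers thus carried almost none of either RNA in the Tie2-GFP library, and too few UMIs to say in the other. The part of mural cells in these RNAs was not tested.

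Mural barcodes were further split by the contractile genes Acta2, Tagln and Myh11, as a step added after the values were seen. In the 40 barcodes with at least 2 of them and the 41 with none, Cox4i2 had 471 and 402 CPM (log2 ratio 0.23, -0.33 to 0.81) and Ndufa4l2 1174 and 1155 CPM (0.02, -0.31 to 0.37). Neither differed beyond counting error between the 2 sets. Ndufa4 had 301 and 80.3 CPM from 53 and 8 UMIs (1.90, 0.82 to 3.19), and the 67 subunits together 16091 and 11095 CPM (0.54, 0.44 to 0.64). The share of Ndufa4l2 in its pair was accordingly 79.6% with at least 2 contractile genes, 87.0% with 1 and 93.5% with none. The contractile barcodes were the deeper, at a median of 3749 against 2268 UMIs, and the part of depth in the result was not tested.

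Besides Cox4i2, a subunit-like gene ran against the rest of complex IV in intermediate and marginal barcodes. Cox7a2l, which joins complexes III and IV in supercomplexes (chr17:83501918-83517330, minus strand), had 322 CPM in endothelial, 176 in intermediate and 188 in marginal barcodes of the Tie2-GFP library, and 205, 121 and 138 CPM in endothelial, intermediate and mural barcodes of the NG2-DsRed library. Endothelial barcodes were the highest in both libraries. The log2 ratios to endothelial were -0.87 (-1.08 to -0.67) for intermediate and -0.78 (-1.20 to -0.39) for marginal barcodes, and -0.76 (-1.39 to -0.17) for intermediate barcodes of the NG2-DsRed library, all short of 2-fold. Cox7a2l took 55.6% and 30.8% of the family's UMIs in endothelial, 25.3% in mural, 8.70% and 6.67% in intermediate and 8.45% in marginal barcodes.

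Marginal and intermediate barcodes, compared within the Tie2-GFP library, had summed levels with a log2 ratio of 0.08, which was 0.73 within the study's mitochondrial limit, where 1 marginal and 9 intermediate barcodes remained. Of 68 members 7 were higher (10.3%) and 1 lower (1.47%) in marginal barcodes, beside 9.77% and 20.5% of 4383 genes. The share higher was thus close to that over all genes, and only the share lower was below it. The 7 were Ndufs6 (log2 ratio 1.69, 1.46 to 1.92), Ndufv1 (1.43), Uqcrc2 (1.32), Cox7a1 (1.14), Sdhc (1.10), Ndufa10 (1.07) and Ndufs3 (1.06). Their levels were 891, 283, 324, 655, 218, 236 and 324 CPM in marginal and 276, 105, 130, 297, 102, 112 and 155 CPM in intermediate barcodes, in that order. Ndufv1 and Ndufs3 belong to the catalytic peripheral arm of complex I. The 1 lower member was Cox8b (-1.85, -2.08 to -1.62), whose ratio was -0.64, short of 2-fold, within the study's mitochondrial limit. The marginal values rest on 20 barcodes, so that genes near 100 CPM had about 30 UMIs there.

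The endothelial barcodes of the 2 libraries differed from each other by 1.49-fold in the summed subunits (1.46 to 1.53), higher in the NG2-DsRed library. Of 70 members 15 were higher and 1 lower there, beside 9.98% and 11.2% of 7582 genes, and the median log2 ratio was 0.72 against 0.04 over all genes. The largest ratios were those of Ndufa4l2 (3.34) and Cox4i2 (2.72), the mural genes above, followed by Sdhaf4, a complex II assembly factor (1.32, 45.8 against 18.3 CPM), Ndufb9 (1.28), Uqcr10 (1.27), Ndufa8 (1.18), Ndufa1 (1.16), Cox8a (1.14) and Sdhaf1 (1.12). With endothelial barcodes of any mural marker left out, Ndufb9 and Ndufa1 were at 0.10 and 0.25. Only 5 NG2-DsRed barcodes remained in that setting, with 12 UMIs of Cox4i1 for instance, so both values are imprecise. Cox7b was the 1 lower member (-1.18, 132 against 301 CPM), at -0.75 with stricter classes. It was lower in the NG2-DsRed intermediate barcodes too (-1.61, 609 against 1858 CPM), and was there the 1 member past 2-fold of 67, none being higher, beside 8.55% of 4290 genes lower and 9.95% higher. Cox4i1 had log2 ratios of -0.51 and -0.94 in the same 2 comparisons. The intermediate sums differed by 1.02-fold (0.994 to 1.04). The matrices name different software versions, and whether intronic reads were counted is not given in the sources used here, so line, library and counting cannot be told apart.

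**Figure D5:**
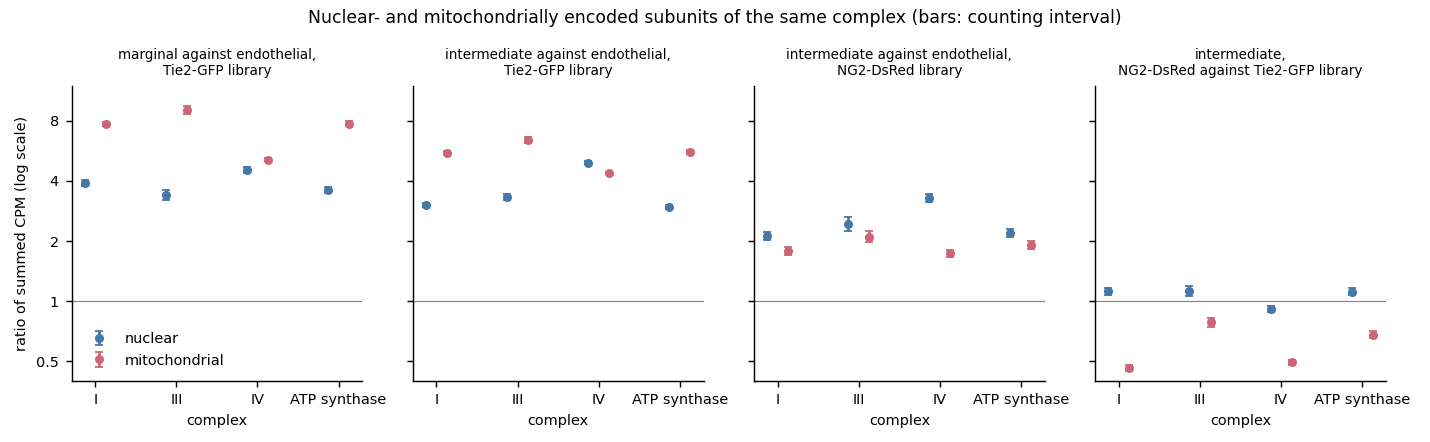
Fold difference in summed CPM (logarithmic vertical axis) of nuclear-encoded and mitochondrially encoded subunits of each complex and of ATP synthase, for marginal and intermediate against endothelial barcodes and for intermediate barcodes of the NG2-DsRed against the Tie2-GFP library, with 95% counting intervals and a line at equal levels. In marginal barcodes nuclear complex I was 3.89-fold and mitochondrially encoded complex I 7.74-fold above the endothelial level.

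The 13 mitochondrially encoded protein genes were set beside the nuclear ones. They summed to 19924 CPM in endothelial, 100222 in intermediate and 129629 in marginal barcodes of the Tie2-GFP library, and to 30023, 25091 and 54849 CPM in endothelial, mural and intermediate barcodes of the NG2-DsRed library. The folds over endothelial barcodes were 6.51 in marginal and 5.03 in intermediate barcodes of the first library and 1.83 in intermediate and 0.836 in mural barcodes of the second. The folds of the mitochondrial sum, which includes 2 ATP synthase genes, exceeded those of the 67 nuclear subunits (4.07 and 3.84) in the Tie2-GFP library. They fell below them (2.61 and 1.01) in the NG2-DsRed library. Per complex, marginal over endothelial folds were 7.74, 9.05 and 5.11 for mitochondrially encoded complexes I, III and IV against 3.89, 3.39 and 4.53 for nuclear ones. Intermediate over endothelial folds of that library were 5.55, 6.44 and 4.38 against 3.02, 3.33 and 4.94, so complex IV had the reverse order. In mural over endothelial barcodes complex III went against the order of the sums, at 1.03 against 0.941. Between the libraries, the nuclear sums of intermediate barcodes agreed within 1.02-fold while their mitochondrially encoded sum in the NG2-DsRed library was 0.547 times that of the Tie2-GFP library. With mitochondrially encoded UMIs left out of the total, the nuclear folds in the Tie2-GFP library were 4.58 in marginal and 4.18 in intermediate barcodes. The share of mitochondrial RNA also moves with damage to cells in dissociated tissue, and its part in these differences was not tested.

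Other genes of oxidative metabolism were counted from lists, beside the 15.4%, 17.4% and 16.8% of all genes that were higher in marginal and in Tie2-GFP and NG2-DsRed intermediate barcodes, and the 13.2% higher in mural barcodes. Of 18 nuclear ATP synthase genes 17 were higher in marginal and 16 in intermediate barcodes of the Tie2-GFP library than in endothelial ones, 12 in intermediate barcodes of the NG2-DsRed library and 0 in mural barcodes. Of 5 electron carriers, which include cytochrome c, 5 and 4 were higher, and of the 3 compared in the second library 3. That list also holds Cyc1, the cytochrome c1 subunit of complex III, which the name rule for members leaves out. The citrate cycle enzymes were higher in 11 of 17, 9 of 17 and 9 of 14. Assembly factors of complexes III and IV were higher in 8 of 16, 9 of 20 (with 2 lower) and 4 of 9. Adenine nucleotide carriers and porins were higher in 4 of 7, 4 of 7 and 5 of 7; Slc25a4, the ADP/ATP carrier of heart and muscle, had log2 ratios of 2.13, 2.25 and 1.80. In mural barcodes Idh2 (1.44), a citrate cycle enzyme, and the porin Vdac1 (1.15) were the only genes of these 5 lists past 2-fold against NG2-DsRed endothelial barcodes, both higher. Against Tie2-GFP endothelial barcodes 4 of 18 ATP synthase genes, 3 of 5 electron carriers, 4 of 17 citrate cycle enzymes and 2 of 7 carriers and porins were higher. Of the assembly factors 0 of 16 were higher and 1 lower. Over all genes 18.4% were higher and 22.1% lower.

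Of the regulators of the chain 1 of 8 compared was higher and 3 lower in marginal than in endothelial barcodes, beside 15.4% and 38% of all genes. In intermediate barcodes of the Tie2-GFP library 3 of 9 were higher and 2 lower, beside 17.4% and 28.9%. Only 2 regulators were compared in those of the NG2-DsRed library, 1 higher and 1 lower, beside 16.8% and 28.8%. Ppargc1a, the coactivator PGC-1α, had 140 CPM in intermediate against 2.04 CPM in endothelial barcodes of the Tie2-GFP library (log2 ratio 6.10). Esrra, an oestrogen-related receptor that works with it, had 113 CPM in intermediate and 137 CPM in marginal barcodes against 10.5 CPM (3.43 and 3.70). It was the 1 regulator called higher in marginal barcodes. Ppargc1a had too few UMIs to be compared there, so whether it differed between marginal and endothelial barcodes was not tested. Epas1, the hypoxia-inducible factor HIF-2α, had 688 CPM in endothelial barcodes of the Tie2-GFP library and 743 CPM in mural ones, against 17.8 CPM in intermediate and 6.83 CPM in marginal barcodes, with log2 ratios to endothelial of -5.27 and -6.66. Higd1b, a mitochondrial inner membrane protein of the hypoxia-induced domain family, had 833 CPM in mural against 263 CPM in endothelial barcodes (1.67). Like Cox4i2 and Ndufa4l2, it had 0 UMIs in intermediate and marginal barcodes of the Tie2-GFP library. It is from a list of 5 hypoxia and pericyte genes. Within the NG2-DsRed library 1 of 2 compared was higher in mural barcodes, beside 13.2% of all genes. Against Tie2-GFP endothelial barcodes 1 of 4 was higher and 2 lower, beside 18.4% and 22.1%.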

How the data were processed

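Unnormalised counts of UMIs, by barcode and gene, were deposited for both libraries. The submitters' processing notes name mm10 and bcl2fastq 2.20.0.422, and the matrix headers software versions 7.0.0 (Tie2-GFP) and 3.0.0 (NG2-DsRed). The annotation and the counting of introns are not given in the sources used here. Reads shared with processed pseudogenes were not separated.

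All deposited barcodes meeting a class rule were used, without a mitochondrial limit, since the study's limits (200 genes and UMIs at least, at most 6000 genes and 30000 UMIs, or 5000 and 20000 for NG2-DsRed, 5% mitochondrial, 40% ribosomal) would leave 9 intermediate and 1 marginal barcode of the Tie2-GFP library. They were tried as an alternative. Barcodes meeting 2 rules were left out (9, Tie2-GFP). UMIs were summed per class and scaled to CPM of all UMIs, with exact Poisson intervals, conditional binomial intervals for ratios and Clopper-Pearson intervals (95%) for shares. Intervals and limits from 3 counts cover counting error only. Thinned shares are exact hypergeometric expectations at 2340 UMIs, the 10th percentile, over the barcodes with at least that many. Shallower barcodes were left out of them but not of the unthinned shares. Genes with at least 50 UMIs over both classes were compared, and a call was a 2-fold difference. Matching used Ensembl identifiers (1 member, Ndufaf8, has another symbol in the NG2-DsRed file). Computation used numpy 2.4.6 and pandas 2.3.3 under Python 3.11.15, intervals scipy 1.17.1, and an alternative Scrublet in scanpy 1.11.5. Gene coordinates are GENCODE M21 (GRCm38); upstream sequences are RefSeq's. The computation was tried on Poisson counts simulated for marginal against endothelial barcodes. All 185 genes changed 4-fold were called among 7214 genes, 5.49% of unchanged genes were called too, and intervals held the true ratio for 96.7%. Such counts hold no spread between barcodes or mice, so they check the computation and not the calls in these data.

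Members, lists and class rules were chosen with earlier results of these data known. The numbers of markers for intermediate and marginal classes, which the rule does not give, were set here. Named genes were, per comparison, the 10 largest ratios, the 6 highest members and both members of each isoform pair. Ndufa7, Ndufs4, Ndufa6, Sdhb and the upstream sequences shown were chosen after their values were seen. 1 item that the rule names is not reported here.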

Additional observations from a re-analysis of the deposited data

Results flagged for a closer look

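Some signal lay outside the comparisons. Ndufb1-ps, a complex I gene matched by the rule in the Tie2-GFP matrix and not analysed in the NG2-DsRed library, had 142 CPM in endothelial (129 to 155), 433 CPM in intermediate (399 to 470) and 409.6 CPM in marginal barcodes (339.6 to 489.8). Cox8b was also found in barcodes that met no class rule, at 409 CPM in the 133 of the Tie2-GFP library and 562 CPM in the 16 of the NG2-DsRed library, above the 5.24 and 11.9 CPM of endothelial barcodes. Ndufa4l2 was found in the 4 mural barcodes of the Tie2-GFP library at 324 CPM (88.2 to 829), from 4 UMIs.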

How the results depend on the processing

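No paired analysis was possible because each line has 1 library. Another fold or UMI minimum leaves every log2 ratio as it was, so no sign could change there. Leaving out Scrublet doublets likewise changed no ratio within the Tie2-GFP library, where 0 barcodes were marked. With such fixed values included, 2933 of 2935 values of called log2 ratios over the alternatives kept their sign. The exceptions were Ndufaf4 in intermediate against endothelial barcodes (Tie2-GFP), -0.51 within the study's mitochondrial and ribosomal limits, and Ndufs7 between endothelial barcodes, -0.95 with any mural marker left out (5 NG2-DsRed barcodes remaining). Within the former limits 31 of 209 member calls fell under 2-fold, and with the latter 14 of 211. The summed log2 ratios ranged from 1.91 to 2.50 for marginal and from 1.47 to 2.18 for intermediate over endothelial barcodes (Tie2-GFP), from 1.34 to 1.68 for intermediate over endothelial (NG2-DsRed), from 1.36 to 1.47 for intermediate over mural, from 0.06 to 0.73 for marginal over intermediate, from -0.12 to 0.59 for mural over endothelial and from 0.28 to 0.59 between endothelial barcodes. Counts of members moved by over 1.5 times as follows, and the cause was not tested except where fewer barcodes, another fold or another UMI minimum set it. Except with the Tie2-GFP endothelial barcodes, the shares over all genes were not computed under these settings. The counts therefore do not show whether members moved more than other genes. The study's limits with mitochondrial and ribosomal ones gave 5 lower in marginal than endothelial and 13 higher in marginal than intermediate barcodes. Stricter classes gave 0 lower in marginal against endothelial, in intermediate against endothelial of either library and in endothelial NG2-DsRed against Tie2-GFP. Leaving out endothelial barcodes with at least 3 mural markers gave 0 lower in the first 3 of these and 5 higher in mural barcodes. A 1.5-fold call gave 19 higher in marginal than intermediate, 4 higher and 2 lower in mural than endothelial, 55 higher in intermediate than endothelial (NG2-DsRed), and 46 higher and 3 lower between endothelial barcodes. A minimum of 20 UMIs gave 2 lower between endothelial barcodes, and one of 100 UMIs 1 lower in marginal and in both intermediate comparisons. Endothelial barcodes of the Tie2-GFP library gave 23 members higher in mural barcodes, beside 18.4% of all genes. Leaving out endothelial barcodes with any mural marker, added after seeing the data, gave 0 lower in the same 3 comparisons, 10 higher and 2 lower in mural barcodes, and 8 higher and 10 lower between endothelial barcodes. Scrublet marked 0 barcodes of the Tie2-GFP and 6 of the NG2-DsRed library. Depth limits mural barcodes most, of which 32 of 97 were under 2340 UMIs.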

Other observations

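The unclassed barcodes also carried Cox7a1, at 270 CPM in the Tie2-GFP and 128 CPM in the NG2-DsRed library, and 67 subunits summing to 18713 and 22694 CPM, between the endothelial and intermediate sums of each library. Hif1a, the hypoxia-inducible factor paired with Epas1 in the list of regulators, had 1123 CPM in intermediate, 201 CPM in marginal and 284 CPM in endothelial barcodes of the Tie2-GFP library, and 855 against 153 CPM in intermediate and endothelial barcodes of the NG2-DsRed library. Ldha, which makes lactate, had log2 ratios to endothelial of 1.10 in intermediate and -0.25 in marginal barcodes of the Tie2-GFP library and of 1.18 in intermediate barcodes of the other.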
